A study of Homo sapiens with 15 samples.

Results

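The genes described here are the myocyte enhancer factor 2 (MEF2) transcription factors MEF2A, MEF2C and MEF2D and the class IIa histone deacetylases HDAC4, HDAC5, HDAC7 and HDAC9. They were chosen by gene symbol, and all 7 were found among the 57964 entries of the expression table, each as a single entry. RNA was measured in MOLM-14 cells, a human acute myeloid leukemia (AML) line that carries the MLL-AF9 fusion. The 8 libraries form 4 groups of 2. In the first pair of groups, cells were electroporated with in vitro transcribed (IVT) RNA at 100 nM, which encoded NR4A1 or, as the control, GFP. In the other pair, cells received 10 uM dihydroergotamine (DHE) or the DMSO vehicle. All cells were collected at 6 hours, and all come from 1 cell line. The groups thus differ in how they were handled as well as in what they received. The sources used here describe the libraries as duplicates and do not say whether the duplicates were separate cultures, so p-values cover the spread between these libraries, which may be technical.

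MEF2 proteins bind AT-rich sites in DNA as dimers, and they can switch target genes on or off depending on the cofactors they bring. Class IIa deacetylases are the best known corepressors of MEF2. They bind MEF2 on chromatin, and they leave the nucleus bound to 14-3-3 proteins once kinases of the CaM kinase, protein kinase D or salt-inducible kinase families phosphorylate them. In blood, MEF2C acts in myeloid and lymphoid progenitors and is known as a gene that MLL fusion leukemias express strongly. HDAC9 is a known target of MEF2 in muscle, where it represses MEF2 in turn.

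A MEF2 site was found at a promoter of 2 of the members, HDAC9 and MEF2A, and both sites are shown. The site, taken as the core TAAAAATA with C before it and G after it, was searched on both strands in RefSeq promoter windows of GRCh38.p14, which run from 250 bases before to 50 bases after each start. The table held 22 windows for 6 members and none for HDAC5. Capitals mark the MEF2 site, and each sequence is given 5′ to 3′ on the strand of its gene.
HDAC9: ccaagaagtgCTATTTTTAGcaaattctcc
MEF2A: ggcttgtctcCTAAAAATAGccccggtgtg
The HDAC9 sequence lies at chr7:18126430-18126459 of GRCh37, on the plus strand. Its site covers the start of a RefSeq transcript, and it ends 123 bases before the HDAC9 gene of the Gencode annotation for GRCh37 begins, outside annotated exons. The MEF2A sequence lies at chr15:100106156-100106185 of GRCh37, on the plus strand, and overlaps an exon and an untranslated region in that annotation. Of all 35116 windows, 50 held the site (0.142%). The core TAAAAATA alone, which every such site contains, was present in 800 windows (2.28%) and in 6 windows of the members, which belong to MEF2A, MEF2C and HDAC9. The letters AAAGGTCA, an element that NR4A receptors bind as monomers, were found in 427 windows (1.22%) and in 0 of the 22. These matches describe letters only.

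Values are in TPM, a measure of a transcript's share of its library corrected for length. Unless deposited TPM are named, each value is a scaled TPM, that is, the deposited TPM divided by a factor that brings the libraries to a common level. The factors lay between 0.889 and 1.12. Read counts cannot be had from TPM, and sequencing depth is therefore unknown. NR4A1 itself stood at 719 and 674 deposited TPM with NR4A1 RNA, which includes the introduced RNA, against 2.49 and 2.84 with GFP RNA. It stood at 1.43 and 1.67 deposited TPM with DHE and at 1.27 and 1.70 with vehicle. Of 10 myeloid leukemia markers, 9 reached 1 TPM in every library, and their sum was 405 to 428 deposited TPM with NR4A1 RNA, 301 to 379 with GFP RNA, 446 to 457 with DHE and 451 to 459 with vehicle. LYZ, at 99.3 to 249 scaled TPM, accounted for a large part of that sum. Of the 10 markers, LYZ was called higher and SPI1 lower with NR4A1 RNA (log2 fold change 0.64 and -1.04, limma adjusted p = 0.0492 and 0.0282). With DHE, CSF1R was called higher, and FLT3 and MPO lower (log2 fold change 1.70, -0.95 and -0.71, limma adjusted p = 0.00561, 0.000712 and 0.00079). The part of these differences in the results was not tested. Of 7 erythroid and megakaryocyte markers and 7 skeletal muscle markers, 0 reached 1 TPM in every library. The skeletal muscle list, which includes MYOG and CKM, summed to no more than 0.135 TPM, and 3 erythroid or megakaryocyte markers were listed at 0 throughout. PAX5 was the only one of 7 lymphoid markers above 1 TPM in every library. Of 7 epithelial and fibroblast markers, 2 reached that level in every library. In bulk RNA, fewer cells of a type and less RNA per cell cannot be told apart.

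GFP RNA replicate 1 and DHE replicate 2 stood apart from their partner libraries. The 5 noncoding entries MIR663A, MIR663B, RP3-410C9.1, MIR3648-1 and MIR3687-1 made up 24.5% of all TPM in GFP RNA replicate 1 and 6.07% in DHE replicate 2, against 0.571% to 2.14% in the other 6 libraries. Across all genes tested, the median distance between the 2 libraries of a group was 0.20 on the log2 scale for GFP RNA and 0.17 for DHE, against 0.08 for NR4A1 RNA and 0.08 for vehicle. The members differed in how far they followed this. MEF2D was 0.69 higher on the log2 scale in GFP RNA replicate 1 than in replicate 2, a distance larger than that of 89.6% of genes. MEF2C was 0.62 lower there, larger than 88% of genes. In DHE, MEF2A was 0.62 lower in replicate 1 than in replicate 2 and MEF2D was 0.49 lower.

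MEF2C was the most abundant member in every group. Its level was 129 and 127 scaled TPM with NR4A1 RNA, 66.1 and 102 with GFP RNA, 113 and 120 with DHE, and 81.3 and 93.5 with vehicle. MEF2D followed with 31.8 and 31.8 scaled TPM with NR4A1 RNA, 66.3 and 41.0 with GFP RNA, 18.0 and 25.6 with DHE, and 35.8 and 36.1 with vehicle. The ranges of MEF2C and MEF2D did not overlap, except with GFP RNA, where replicate 1 held the 2 transcripts at nearly equal levels. HDAC9 was the third with NR4A1 RNA, GFP RNA and vehicle, and HDAC5 was the third with DHE. HDAC9 and HDAC5 overlapped with GFP RNA only. The remaining members, MEF2A, HDAC4 and HDAC7, averaged 5.42 to 9.92 scaled TPM over the 4 groups. Among them, HDAC4 and HDAC7 overlapped with NR4A1 RNA and with GFP RNA, and MEF2A and HDAC7 overlapped with DHE. MEF2B, the remaining MEF2 gene of the human genome, lay between 0.0280 and 0.610 deposited TPM and was not tested.

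**Figure D1:**
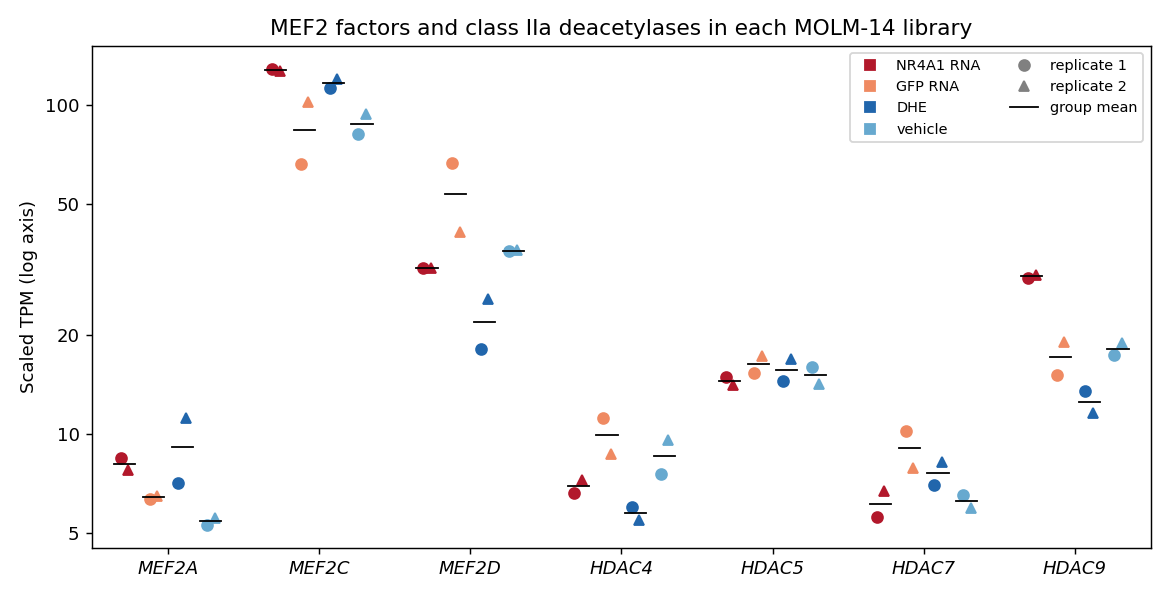
Scaled TPM of each member (log axis) in the 8 libraries, with circles for replicate 1, triangles for replicate 2 and a line at the group mean. MEF2C is the highest member in every group, the HDAC9 points with NR4A1 RNA (29.8 and 30.3) lie above all other HDAC9 points, and the MEF2D points with GFP RNA lie far apart (66.3 and 41.0).

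The first comparison asked how the members responded to NR4A1 RNA relative to GFP RNA. HDAC9 rose 1.75-fold, and it was the only member that passed the test, which required a limma adjusted p under 0.05 over all 14367 genes tested and a change of more than 1.5-fold. By these limits 4.9% of all genes tested were called, 2.64% higher and 2.26% lower. Of these calls 54% were higher, against 77.5% when libraries were given an equal total without 5 small noncoding RNAs. The share was 47.6% when the noncoding entries of the MIR663A group named above were left out as well. HDAC9 stood at 29.8 and 30.3 scaled TPM with NR4A1 RNA, against 15.1 and 19.0 with GFP RNA. Both NR4A1 libraries exceeded both GFP libraries, and they also exceeded both DHE and both vehicle libraries. The log2 fold change was 0.81 ± 0.13 (SE, n = 2 each), with a limma adjusted p of 0.0191. No other member had an adjusted p under 0.05, where 8.8% of all genes tested did.

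HDAC9 kept its direction in all 24 alternative settings, between 0.64 and 1.02, and passed the test in 17 of them. The call was lost without NR4A1 RNA replicate 1 (log2 fold change 0.82, limma adjusted p = 0.127), NR4A1 RNA replicate 2 (0.80, limma adjusted p = 0.139), GFP RNA replicate 1 (0.64, limma adjusted p = 0.0502), vehicle replicate 1 (0.80, limma adjusted p = 0.0525) or vehicle replicate 2 (0.80, limma adjusted p = 0.0519). It was also lost when only the 4 libraries compared were fitted (0.81, limma adjusted p = 0.101) and when libraries were given an equal total without the 5 small noncoding RNAs (1.02, limma adjusted p = 0.0935).

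The other class IIa deacetylases did not pass. HDAC4, which shuttles between nucleus and cytoplasm in response to calcium signals, stood at 6.60 and 7.24 scaled TPM with NR4A1 RNA, against 11.2 and 8.66 with GFP RNA. HDAC7, known for its role in thymocytes, B cell precursors and endothelium, stood at 5.58 and 6.67 scaled TPM with NR4A1 RNA, against 10.2 and 7.87 with GFP RNA. Their libraries did not overlap, with log2 fold changes of -0.48 for HDAC4 and -0.52 for HDAC7 (limma adjusted p = 0.115 and 0.0934). HDAC5, known together with HDAC9 as a brake on growth of the heart, stood at 14.9 and 14.1 scaled TPM with NR4A1 RNA, against 15.3 and 17.3 with GFP RNA. Its log2 fold change of -0.16 had a 95% interval from -0.42 to 0.10.

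No MEF2 factor passed the test with NR4A1 RNA. MEF2C, at 129 and 127 against 66.1 and 102 scaled TPM with GFP RNA, had a log2 fold change of 0.63 ± 0.19 (SE, n = 2 each; limma adjusted p = 0.0985). MEF2D had a log2 fold change of -0.71 ± 0.25 (SE, n = 2 each; limma adjusted p = 0.13), and its NR4A1 libraries, at 31.8 and 31.8 scaled TPM, lay below GFP RNA replicate 2 at 41.0 and further below replicate 1 at 66.3. MEF2A, the most widely expressed MEF2 factor, stood at 8.41 and 7.74 scaled TPM with NR4A1 RNA, against 6.34 and 6.46 with GFP RNA, a log2 fold change of 0.31 (limma adjusted p = 0.324). None of the 7 members overlapped between the groups, 3 being higher and 4 lower with NR4A1 RNA. Of all genes tested, 60.9% did not overlap.

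The GFP libraries decided how MEF2C and MEF2D were read. Without GFP RNA replicate 1 the log2 fold changes of MEF2C and MEF2D shrank to 0.32 and -0.37. Without GFP RNA replicate 2 they were 0.94 and -1.05, in a fit that leaves 1 GFP RNA library. The distance between the GFP libraries followed base composition weakly, with r = 0.177 across 11586 genes of known GC content, a description over genes of the same pair of libraries. The transcripts of MEF2D contain 60.4% GC and those of MEF2C 43%. For the other members, GC content is given with GFP RNA replicate 1 minus replicate 2 on the log2 scale. HDAC4 had 58.8% and 0.35, HDAC7 63.8% and 0.35, and HDAC9 44% and -0.32. HDAC5, with 62.6%, was at -0.17, and MEF2A, with 44.1%, was at -0.02. The members thus did not all follow GC content, and its part in these distances was not tested. GC content here is a plain mean over the annotated transcripts of a gene, not weighted by their expression. After adjustment for GC content and length, the log2 fold changes were -0.51 for MEF2D and 0.55 for MEF2C, and neither passed.

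The second comparison asked the same of DHE relative to vehicle. MEF2A rose 1.59-fold and was the only member that passed. Here 19.2% of all genes tested were called, 9.07% higher and 10.1% lower. MEF2A stood at 7.10 and 11.2 scaled TPM with DHE, against 5.28 and 5.55 with vehicle, so both DHE libraries lay above both vehicle libraries, by very different distances. The log2 fold change was 0.67 ± 0.19 (SE, n = 2 each; limma adjusted p = 0.0396). It was 0.36 without DHE replicate 2, which is under the size limit, and 0.98 without DHE replicate 1. MEF2A was positive in all 24 alternative settings and passed in 9. The call was also lost without either NR4A1 RNA library (0.67 and 0.67, limma adjusted p = 0.0709 for both), without GFP RNA replicate 1 or 2 (0.67 and 0.67, limma adjusted p = 0.0584 and 0.0579) and without vehicle replicate 1 or 2 (0.64 and 0.70, limma adjusted p = 0.155 and 0.127).

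MEF2D did not pass with DHE. It stood at 18.0 and 25.6 scaled TPM with DHE, against 35.8 and 36.1 with vehicle, which left a clear distance between the groups. The log2 fold change was -0.73 ± 0.25 (SE, n = 2 each; limma adjusted p = 0.0663). It was negative in all 24 alternative settings, between -0.98 and -0.48, and it passed in 9. Without GFP RNA replicate 1 or 2 it was -0.73 and -0.73. The GFP RNA libraries enter this comparison only through the scaling, the gene filter and the spread shared by all groups. A pass gained by leaving them out therefore adds nothing on the change of MEF2D with DHE. MEF2C stood at 113 and 120 scaled TPM with DHE, against 81.3 and 93.5 with vehicle. Its log2 fold change of 0.41 had a 95% interval from -0.06 to 0.89.

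Of the deacetylases, HDAC9 and HDAC4 had adjusted p-values under 0.05 with changes under 1.5-fold, so neither was called. Of all genes tested, 34.8% had an adjusted p under 0.05 in this comparison. HDAC9 stood at 13.5 and 11.5 scaled TPM with DHE, against 17.3 and 18.9 with vehicle, 1.44-fold lower (log2 fold change -0.52 ± 0.13, SE, n = 2 each; limma adjusted p = 0.0243). Without DHE replicate 1 it was -0.63 and passed. HDAC4 stood at 5.98 and 5.48 scaled TPM with DHE, against 7.54 and 9.59 with vehicle, 1.45-fold lower (log2 fold change -0.53 ± 0.16, SE, n = 2 each; limma adjusted p = 0.0443). The DHE libraries of both genes lay below the vehicle libraries.

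HDAC7 stood at 6.97 and 8.23 scaled TPM with DHE, against 6.49 and 5.95 with vehicle, a log2 fold change of 0.27 (limma adjusted p = 0.237). HDAC5 stood at 14.5 and 16.8 scaled TPM with DHE, against 16.0 and 14.2 with vehicle, and was the only member whose DHE and vehicle libraries overlapped. Its log2 fold change of 0.05 had a 95% interval from -0.21 to 0.31. The other 6 members did not overlap, 3 higher and 3 lower, where 69.9% of all genes tested did not overlap.

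**Figure D2:**
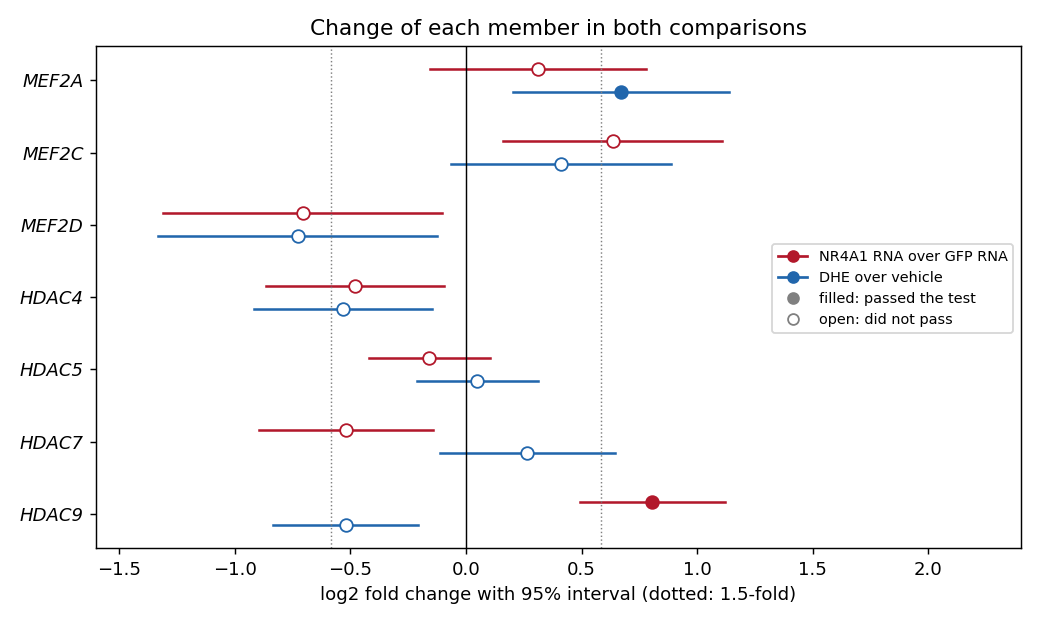
log2 fold change of each member with its 95% interval from the limma fit, NR4A1 RNA over GFP RNA above and DHE over vehicle below within each gene. Filled points passed the test (HDAC9 with NR4A1 RNA at 0.81, MEF2A with DHE at 0.67), and HDAC9 lies on opposite sides of 0 in the 2 comparisons.

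The difference between the responses was tested as an interaction, the DHE effect minus the NR4A1 effect. HDAC9 was the only member that passed, at -1.33 ± 0.18 on the log2 scale (SE, n = 2 per group; limma adjusted p = 0.009), with a 95% interval from -1.77 to -0.89. By the adjusted p alone, 18.9% of all genes tested passed, 10.9% in this direction and 8.03% in the other. In the separate comparisons the log2 fold change of HDAC9 was -0.52 with DHE and 0.81 with NR4A1 RNA. The interaction stayed negative in all 21 alternative settings and passed in 19. It did not pass without NR4A1 RNA replicate 2 (-1.32, limma adjusted p = 0.0519) or with libraries set to equal totals without 5 small noncoding RNAs (-1.55, limma adjusted p = 0.0669).

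HDAC7 had the next largest difference, 0.78 ± 0.22 (SE, n = 2 per group; limma adjusted p = 0.0552). For the other 5 members the adjusted p lay between 0.36 and 0.972. MEF2D, at -0.73 under DHE and -0.71 under NR4A1 RNA on the log2 scale, differed by -0.02 with a 95% interval from -0.88 to 0.83. That interval leaves room for sizeable differences in either direction.

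GFP RNA was set against vehicle to show the level of the 2 controls. None of the 7 members was called by limma, where 0.0139% of all genes tested were called. An unadjusted p under 0.05 was found for 1 member and for 18.7% of all genes tested. The 2 genes called among all genes became 489 without GFP RNA replicate 2. The member with the small p was HDAC7, at 10.2 and 7.87 scaled TPM with GFP RNA, against 6.49 and 5.95 with vehicle (log2 fold change 0.49, limma adjusted p = 0.223), and its log2 fold change was 0.32 without GFP RNA replicate 1 and 0.67 without replicate 2. MEF2D stood at 66.3 and 41.0 scaled TPM with GFP RNA, against 35.8 and 36.1 with vehicle (log2 fold change 0.53, limma adjusted p = 0.299), and its log2 fold change was 0.19 without GFP RNA replicate 1 and 0.87 without replicate 2. Of the members, 3 were higher with GFP RNA without overlap (MEF2A, MEF2D and HDAC7), and 4 overlapped, where 54.7% of all genes tested did not overlap. Electroporation and the introduced RNA cannot be told apart in this comparison.

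Ratios taken within a library do not depend on scaling between libraries, and they were chosen after the values had been seen. Each sets a transcript of lower GC content against others of higher GC content. MEF2C has 43% and MEF2D 60.4%, and HDAC9 has 44%, against 58.8%, 62.6% and 63.8% for HDAC4, HDAC5 and HDAC7. A difference between libraries that follows base composition would remain in these ratios, and its part was not tested. MEF2C exceeded MEF2D 4.05-fold and 3.98-fold with NR4A1 RNA, against 0.996-fold and 2.48-fold with GFP RNA. With DHE the ratio was 6.25 and 4.67, against 2.27 and 2.59 with vehicle. Both NR4A1 and both DHE libraries thus lay above the 4 control libraries.

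HDAC9 made up 52.4% and 52.0% of the summed scaled TPM of the class IIa deacetylases with NR4A1 RNA, against 29.2% and 36.0% with GFP RNA. With DHE it made up 32.9% and 27.4%, against 36.6% and 38.9% with vehicle. The ratio of HDAC9 to HDAC4 was 4.52 and 4.19 with NR4A1 RNA, against 1.35 and 2.20 with GFP RNA, and it was 2.25 and 2.10 with DHE, against 2.29 and 1.97 with vehicle. HDAC9 and HDAC4 were thus in a similar proportion with DHE and vehicle, where the libraries overlapped.

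The 3 MEF2 factors summed to 169 and 166 scaled TPM with NR4A1 RNA, against 139 and 149 with GFP RNA. They summed to 138 and 156 scaled TPM with DHE, against 122 and 135 with vehicle. The 4 class IIa deacetylases summed to 56.9 and 58.3 scaled TPM with NR4A1 RNA, against 51.8 and 52.8 with GFP RNA. They summed to 40.9 and 42.0 scaled TPM with DHE, against 47.3 and 48.7 with vehicle. The deacetylase sum was thus lower with DHE than with vehicle and higher with NR4A1 RNA than with GFP RNA, in libraries that did not overlap. With NR4A1 RNA, HDAC9 alone was higher, while HDAC4, HDAC5 and HDAC7 were lower. With DHE, HDAC9 and HDAC4 were lower, HDAC7 was higher and HDAC5 overlapped. Of single genes tested, 60.9% did not overlap with NR4A1 RNA and 69.9% with DHE. These sums are a description and carry no test.

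**Figure D3:**
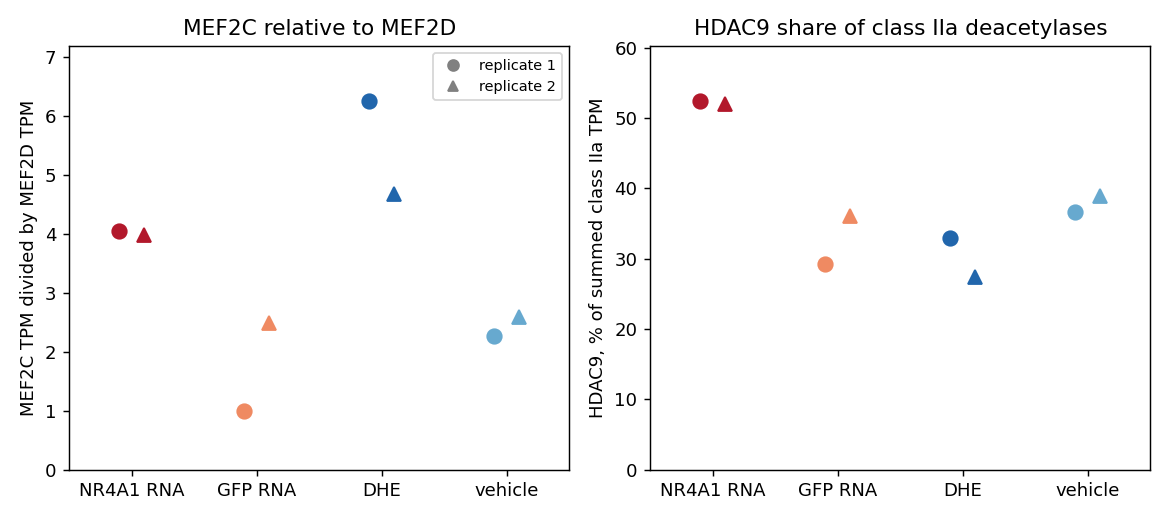
MEF2C divided by MEF2D (left) and the share of HDAC9 in the summed class IIa deacetylases in percent (right), in each library, with circles for replicate 1 and triangles for replicate 2. The MEF2C to MEF2D ratio is 3.98 or more in the NR4A1 and DHE libraries and 2.59 or less in the GFP and vehicle libraries, and the HDAC9 share is 52.0% or more with NR4A1 RNA only.

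Genes that act on these proteins were read from lists of known regulators. Of 17 kinases of class IIa deacetylases, 14 were tested. With NR4A1 RNA 1 fell and 0 were called higher, where 4.9% of all genes tested were called, and with DHE 2 rose and 1 fell, where 19.2% were called. CAMKK2, which activates the CaM kinases and AMP-activated kinase, was the gene called in both. It stood at 27.1 and 27.8 scaled TPM with NR4A1 RNA, against 48.1 and 39.4 with GFP RNA (log2 fold change -0.66 ± 0.12, SE, n = 2 each; limma adjusted p = 0.0274). That call was lost without GFP RNA replicate 1 (-0.52), and without either NR4A1 RNA or either vehicle library. It stood at 13.5 and 16.1 scaled TPM with DHE, against 42.2 and 41.4 with vehicle (log2 fold change -1.47 ± 0.12, SE, n = 2 each; limma adjusted p = 0.000528). Its fall with DHE was the largest among the tested regulators listed here.

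The kinases that rose with DHE were SIK3 and CAMK1. SIK3, a salt-inducible kinase, stood at 10.1 and 14.5 scaled TPM with DHE, against 6.41 and 6.10 with vehicle (log2 fold change 0.90, limma adjusted p = 0.0102). CAMK1, a CaM kinase that CAMKK2 activates, stood at 8.11 and 6.55 scaled TPM with DHE, against 4.30 and 4.97 with vehicle (log2 fold change 0.60, limma adjusted p = 0.0222). Under NR4A1 RNA, SIK3 had a log2 fold change of -0.58 and CAMK1 one of 0.57, and neither passed. The SIK3 call was lost without either vehicle library, and the CAMK1 call without DHE replicate 1 (0.46) or either vehicle library. The median log2 fold change of the 14 kinases was -0.08 with NR4A1 RNA and 0.23 with DHE, where the median of all genes was -0.02 and 0.04.

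Of the 6 tested 14-3-3 genes of 7, 0 were called with NR4A1 RNA, and with DHE 1 rose and 1 fell, against the same shares of all genes, 4.9% and 19.2%. YWHAZ stood at 322 and 349 scaled TPM with DHE, against 220.2 and 213 with vehicle (log2 fold change 0.63, limma adjusted p = 0.00207). YWHAG stood at 37.7 and 38.2 scaled TPM with DHE, against 63.8 and 63.1 with vehicle (log2 fold change -0.74, limma adjusted p = 0.000373). Their DHE and vehicle libraries did not overlap. Without DHE replicate 2, YWHAZ was at 0.57, under the size limit. The median log2 fold change of the 6 was -0.10 under NR4A1 RNA and -0.08 under DHE.

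All 6 genes of the NCoR and SMRT corepressor complex, through which class IIa deacetylases recruit enzymatic activity, were tested. Of all genes tested, 4.9% were called with NR4A1 RNA and 19.2% with DHE. Of the 6, 0 were called with NR4A1 RNA and 1 was called with DHE, TBL1X. It stood at 9.29 and 10.4 scaled TPM with DHE, against 4.57 and 5.44 with vehicle (log2 fold change 0.91, limma adjusted p = 0.00559). HDAC3, the enzyme of that complex, differed by -0.02 on the log2 scale under NR4A1 RNA and by 0.03 under DHE, and passed in neither. Of 6 other deacetylases, 5 were tested, against the same shares of all genes. Of the 5, 0 were called with NR4A1 RNA and 1 was called with DHE, HDAC6, a cytoplasmic tubulin deacetylase. HDAC6 stood at 20.4 and 17.5 scaled TPM with DHE, against 8.53 and 9.74 with vehicle (log2 fold change 1.01, limma adjusted p = 0.00447). The median log2 fold change of the corepressor genes was -0.01 with NR4A1 RNA and 0.20 with DHE, and that of the 5 other deacetylases was 0.05 with NR4A1 RNA and -0.18 with DHE.

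Of 13 activators and cofactors of MEF2, all were tested, 0 were called with NR4A1 RNA and 1 rose with DHE, where 4.9% and 19.2% of all genes tested were called. That gene was the acetyltransferase KAT2B, at 3.27 and 3.93 scaled TPM with DHE, against 1.44 and 1.87 with vehicle (log2 fold change 0.93, limma adjusted p = 0.0108), and its call was lost without DHE replicate 2 (0.81) or vehicle replicate 1. The median log2 fold change of the 13 was -0.29 with NR4A1 RNA, with 10 negative, and 0.39 with DHE, with 11 positive. Both moved with the libraries that stood apart. Without GFP RNA replicate 1 the first was -0.14, against -0.52 without replicate 2, and without DHE replicate 2 the second was 0.15, against 0.55 without replicate 1. The coactivator EP300, named after its values had been seen, stood at 14.6 and 17.6 scaled TPM with NR4A1 RNA, against 44.1 and 22.2 with GFP RNA, and at 21.6 and 38.8 with DHE, against 15.5 and 14.2 with vehicle. Of 10 genes known as MEF2 targets in other tissues, 4 were tested, 0 were called with NR4A1 RNA and 1 was called with DHE. KLF6 stood at 6.93 and 8.65 scaled TPM with DHE, against 4.63 and 3.50 with vehicle (log2 fold change 0.86, limma adjusted p = 0.0187), and its call was lost without DHE replicate 2 (0.71) or vehicle replicate 2. For these 4 targets the median log2 fold change was -0.40 under NR4A1 RNA and 0.31 under DHE. The filter partly fixed the first of these medians, because KLF2 passed it only through the GFP RNA libraries. Without GFP RNA replicate 1 the first was -0.12, over 3 targets, because KLF2 reached 1 deposited TPM in the GFP RNA libraries only. Leaving out 1 library at a time leaves 1 library in a group. Under NR4A1 RNA it changed the number called for the kinases, the corepressor complex, the other deacetylases and the activators. The highest number in each of these lists was reached without GFP RNA replicate 2, where calls among all genes also rose. Under DHE the number called changed for the kinases, the 14-3-3 genes, the corepressor complex, the activators and the targets.

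The genes whose profile over the 8 libraries was most like that of MEF2C were PRKAA1 (r = 0.98), BLZF1 (0.97), WDFY1 (0.97), MTRF1 (0.96) and PPWD1 (0.96), searched over the 8949 genes that averaged 5 scaled TPM or more. For MEF2D they were PSME3, NOTCH1, MB21D1, PELP1 and TAP2, each at r = 0.99. These correlations are a description over libraries that share scaling and group. GFP RNA replicate 1, the lowest library for MEF2C and the highest for MEF2D, contributes much of the spread of both members. The DHE libraries, the lowest for MEF2D, contribute much of its spread as well. Between members, r was -0.73 for MEF2C with MEF2D, 0.88 for HDAC4 with MEF2D and -0.78 for HDAC4 with MEF2C. HDAC9 followed neither closely, with r = 0.37 for MEF2C and 0.15 for MEF2D.

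**Figure D4:**
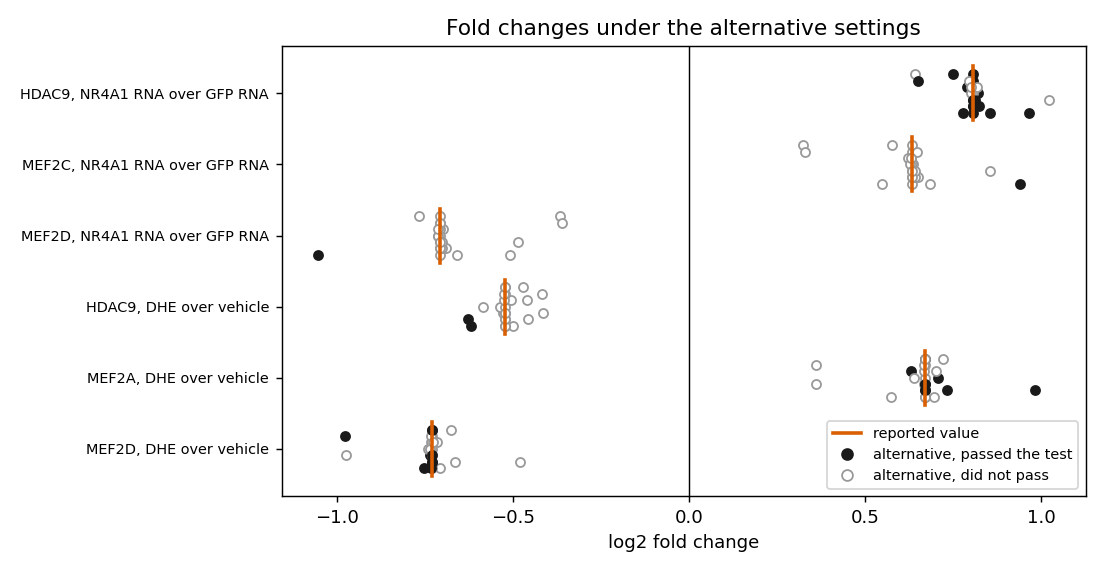
log2 fold changes of selected members under the alternative settings, with a bar at the reported value, filled points where the alternative passed the test and open points where it did not. Within a comparison, all points of a gene lie on 1 side of 0. The HDAC9 points run from 0.64 to 1.02 with NR4A1 RNA and from -0.63 to -0.41 with DHE.

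By position, the members lie on different chromosomes of GRCh37. In the Gencode annotation for that build, MEF2C spans chr5:88012934-88200074 on the minus strand, MEF2D chr1:156433519-156470571 on the minus strand and MEF2A chr15:100105622-100256693 on the plus strand. HDAC9 spans chr7:18126572-19042039 on the plus strand and is the longest of the 7 genes at 915.5 kb. Gene-level TPM do not separate the forms of HDAC9 with and without a deacetylase domain. HDAC4 spans chr2:239969864-240323348, HDAC5 chr17:42154114-42201070 and HDAC7 chr12:48176505-48226915, all on the minus strand.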

How the data were processed

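RNA-seq from 8 MOLM-14 libraries (ribosomal RNA depleted, strand-marked, paired-end) was used. The authors trimmed reads with Trim Galore, quantified transcripts with Salmon 0.11.0 against Gencode v29, and deposited TPM per gene. They also deposited fold changes and p-values from DESeq2, which were not used. ChIP-seq libraries were not analysed here. The TPM hold no counts, so depth and counting error are unknown.

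Libraries were scaled by median of ratios, taken over genes that reached 1 TPM throughout. The fit kept the 14367 genes that reached 1 TPM in 2 libraries or more, and log2(scaled TPM + 0.5) was fitted in limma 3.58.1 under R 4.3.3 with 4 group means and an intensity trend (4 residual and 2.07 prior degrees of freedom). Fold changes are on that scale and understate those of low genes. A call required a Benjamini-Hochberg adjusted p under 0.05 over all genes tested and a change over 1.5-fold, and for the interaction the adjusted p alone. The steps were tested on simulated data. Where a symbol was repeated, the entry with the highest mean kept it.

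Members and lists were chosen with earlier results of these data known. Named were all 7 members, every gene of the regulator lists called with NR4A1 RNA or DHE, and for MEF2C and MEF2D the 5 genes of highest correlation. HDAC3 was named in addition, after its values had been seen, as were the 5 abundant noncoding entries. Antisense RNAs at the members matched 0 of 3 symbols. Promoters were from RefSeq (GRCh38.p14), and the printed sequences were located by exact match in GRCh37. The labels name hg19. Alternatives were other scalings, pseudocounts, filters, a replicate block, weights, a robust fit, subsets of libraries and a GC and length adjustment.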

Additional observations from a re-analysis of the deposited data

Results flagged for a closer look

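HDAC9 responded differently to the 2 treatments. Its log2 fold change was -0.52 with DHE over vehicle and 0.81 with NR4A1 RNA over GFP RNA, and the first minus the second was -1.33 (limma adjusted p = 0.009). In scaled TPM, HDAC9 stood at 13.5 and 11.5 with DHE, against 17.3 and 18.9 with vehicle, and at 29.8 and 30.3 with NR4A1 RNA, against 15.1 and 19.0 with GFP RNA. With 2 libraries per group, no single library could be tested as standing apart from its group.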

How the results depend on the processing

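All values rest on 2 libraries a group at unknown depth, and the cause of the changes below was not tested. With NR4A1 RNA, 1 member was called (HDAC9); 0 were called when libraries had an equal total without 5 small noncoding RNAs (RMRP, RPPH1, RN7SK, RN7SL1, RN7SL2) or when only the 4 libraries compared were fitted. With DHE, 1 member was called (MEF2A). That count was 0 with TPM as deposited, with no filter on low values, with only the 4 libraries compared and with an equal total without 10 abundant noncoding entries. It was 1 without the 5 small RNAs and without GFP RNA 1 and DHE 2 together, but the gene was MEF2D and not MEF2A. It was 2 with a filter of 5 TPM and with array weights (MEF2A and MEF2D), and 2 with adjustment for GC content and length (MEF2D and HDAC9). In the interaction, 1 member was called (HDAC9). That count was 2 with upper quartile scaling, a filter of 5 TPM and adjustment for GC content and length (HDAC7 and HDAC9), 2 without GFP RNA 1 and DHE 2 together (MEF2D and HDAC9), and 0 without the 5 small RNAs. Leaving out 1 library at a time gave 0 to 5 members with NR4A1 RNA, 0 to 2 with DHE, 0 with GFP RNA over vehicle and 0 to 3 in the interaction. The settings without 10 entries, the leaving out of libraries for genes and lists that are no members, and those with adjustment for GC content and length were chosen after seeing the data. The interaction has no value with only the 4 libraries compared, and it was not run with crossed numbers.

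Same-numbered replicates did not deviate together (r = -0.010 for NR4A1 RNA with GFP RNA and 0.025 for DHE with vehicle, over 14367 genes), so the numbers were not taken to pair libraries. With a replicate block, 1 member was called with NR4A1 RNA (HDAC9), 0 with DHE and 1 in the interaction (HDAC9). GFP RNA and DHE deviated in opposite directions (r = -0.138). Over the 8950 genes that averaged 5 scaled TPM or more, r was -0.419 for this pair. There it was 0.067 for NR4A1 RNA with GFP RNA and 0.055 for DHE with vehicle. With the numbers of either crossed in the block, chosen after seeing the data, 2 members were called with DHE (MEF2A and MEF2D) and 1 with NR4A1 RNA (HDAC9).

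Reversals concerned small values that did not pass. HDAC5 with NR4A1 RNA was 0.056 without the 5 small RNAs and 0.029 after adjustment for GC content and length. HDAC5 with DHE was -0.058 without GFP RNA 1 and DHE 2 together and -0.055 to 0.16 leaving out 1 library. In GFP RNA over vehicle, HDAC5 was -0.0054 with TPM as deposited, -0.11 without the 5 small RNAs and -0.032 after adjustment for GC content and length, and HDAC4 was -0.016 without the 5 small RNAs. There MEF2C was 0.23 and HDAC9 0.076 without GFP RNA 1 and DHE 2 together, and -0.40 to 0.22 and -0.25 to 0.070 leaving out 1 library. In the interaction, MEF2D was 0.025 with upper quartile scaling, 0.089 without the 10 entries and -0.36 to 0.32 leaving out 1 library. HDAC4 was 0.053 without the 10 entries and -0.23 to 0.12 leaving out 1 library. HDAC5 was -0.014 without the 5 small RNAs, and MEF2C was 0.038 without GFP RNA 1 and DHE 2 together and -0.53 to 0.087 leaving out 1 library.

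Group means of summed TPM moved by more than the spread of a group in these cases. The MEF2 sum with NR4A1 RNA (167) was 164.9 with TPM as deposited, 174 without the 5 small RNAs and 164.6 without the 10 entries, and with GFP RNA (144) it was 131 without the 5 small RNAs. The deacetylase sum with NR4A1 RNA (57.6) was 60.03 without the 5 small RNAs. With GFP RNA (52.3) it was 49.9 as deposited, 51.5 with upper quartile scaling, 47.3 without the 5 small RNAs and 53.5 without the 10 entries. With DHE (41.5) it was 43.5, 43.05, 43.1 and 42.4 in the same order, and with vehicle (48.0) it was 49.4 as deposited and 50.1 without the 5 small RNAs. All genes called numbered 93 to 1499 with NR4A1 RNA (704 as reported), 1988 to 2948 with DHE (2760), 0 to 489 for GFP RNA over vehicle (2) and 305 to 4248 in the interaction (2716). The scaling without the 5 small RNAs moved the median of all genes with NR4A1 RNA to 0.18, against -0.02 as reported and -0.07 without the 10 entries.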

Other observations

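Between the 2 controls, limma called 0 of the 4 tested genes known as MEF2 targets in other tissues and 0 of the 13 MEF2 activators and cofactors, where 0.0139% of all genes tested were called. All 4 tested targets were higher with GFP RNA than with vehicle, with a median log2 fold change of 0.73, against 0.00 over all genes. Each had an unadjusted limma p under 0.05, where 18.7% of all genes tested did. The filter partly fixed this outcome. KLF2 reached 1 deposited TPM only in the GFP libraries (2.23 and 1.25), and JUN only in the electroporated ones. KLF4 and KLF6, above 1 TPM in every library, had log2 fold changes of 0.34 and 0.58. KLF2 and KLF4 were named after their values had been seen. Without GFP RNA replicate 1, the median of the tested targets was 0.36, over 3 targets. JUN, named after its values had been seen, stood at 3.73 and 2.86 scaled TPM with GFP RNA, against 0.624 and 0.413 with vehicle (log2 fold change 1.90, limma adjusted p = 0.059). Of the 13 activators and cofactors, 12 were higher with GFP RNA than with vehicle, with a median of 0.31 and an unadjusted limma p under 0.05 for 6. Without GFP RNA replicate 1 that median was 0.18, against 0.48 without replicate 2. The coactivator EP300, also named after its values had been seen, stood at 44.1 and 22.2 scaled TPM with GFP RNA, against 15.5 and 14.2 with vehicle (log2 fold change 1.05, limma adjusted p = 0.248). GFP RNA replicate 1, the library rich in the MIR663A group of entries, was the highest of the 8 libraries for both genes.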
